A study of Mus musculus with 9 samples.

Results

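The genes of the translation initiation and elongation factors were compared between kidneys of old and young wild-type mice. Members were taken by symbol alone, as all genes whose name begins with Eif1 to Eif6, Eef1 or Eef2, a rule that uses no measured value. The expression table held 64 of them among 13081 genes, 51 Eif genes and 13 Eef genes. All 64 were among the 12667 genes with enough reads to be tested. Young kidneys came from mice of 3 months (n = 4) and old kidneys from mice of 16 months (n = 5). Both groups were wild type, and the labels give no other treatment, allele or sex. The study's methods place its mice on a C57BL/6 background. The library titles carry a prefix that differs between the ages and is never shared, so age cannot be told apart from any difference in preparation that goes with the prefix. Nothing in the labels says whether the libraries of a group came from separate animals prepared separately, so p-values measure the spread between these libraries.

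Translation begins when eIF4F, made of the cap-binding protein eIF4E, the scaffold eIF4G and the RNA helicase eIF4A, recruits an mRNA to the small ribosomal subunit, which carries eIF1, eIF1A, eIF3, eIF5 and the initiator tRNA bound to eIF2 and GTP. After the start codon is found, eIF2 is released with GDP and must be reloaded by the exchange factor eIF2B, a step that stress kinases block by phosphorylating eIF2. Elongation then runs on eEF1A, which delivers aminoacyl-tRNA, and eEF2, which moves the ribosome along. The kinase complex mTORC1 controls this machinery through the eIF4E-binding proteins, the S6 kinases and eEF2 kinase, and mRNAs of many elongation factors carry a 5′ terminal oligopyrimidine (TOP) tract that ties their translation to mTORC1. The libraries measured RNA, not protein or phosphorylation.

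The table held 4486406 to 6355095 reads per library, and values are given as normalized counts, meaning reads per gene divided by a size factor for the library. Reads were taken at the 3′ ends of transcripts. Kidney markers were present as labeled, with 10 of 10 proximal tubule markers and 10 of 10 markers of loop, distal tubule and collecting duct in the table, and 0 of 5 adrenal cortex markers. Several features moved with age. The summed level of the 10 proximal tubule markers was 187125 to 218785 normalized counts in young and 126110 to 177321 in old libraries, and 4 of the 10 had a higher mean in old. The 9 leukocyte markers in the table summed to 984 to 1573 in young and 2029 to 4226 in old libraries, with 8 of the 9 higher in old. The 6 endothelial markers summed to 1191 to 1314 in young and 1604 to 1939 in old libraries, and the 10 markers of loop, distal tubule and collecting duct to 12616 to 13434 and 15205 to 18227, with 5 of the 6 and 5 of the 10 higher in old. The 6 fibroblast and pericyte markers summed to 1723 to 2137 in young and 947 to 1687 in old libraries, with 2 of the 6 higher in old. Mitochondrial transcripts took 27.0% to 29.7% of reads in young and 35.8% to 38.1% in old libraries. The Y-linked genes Ddx3y, Uty, Kdm5d and Eif2s3y had reads in all 9 libraries. Xist, listed beside them as a sex-linked marker, was not in the table. In whole tissue, fewer cells of a type and less RNA per cell cannot be told apart, and the part of cell composition, mitochondrial share or prefix in the results below was not tested.

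Translation factor transcripts went in both directions with age. Of the 64 genes, 45 (70.3%) were called (limma over all genes, adjusted p-value under 0.05), against 59.7% of all genes tested. Of these, 20 were higher in old kidneys (31.2% of members, against 29.2% of all genes) and 25 were lower (39.1%, against 30.5%). The change of 34 called members was 1.5-fold or more (53.1%, against 45.1%), 13 higher and 21 lower, where 21.6% and 23.6% of all genes were called in those directions. In 41 members no old value lay within the young range or the reverse (64.1%, against 49.0%), 17 of them higher in old (23.3% of all genes) and 24 lower (25.7%). The median log2 fold change of the members was 0.04 and that of all genes -0.0027, and the median size of the change without its sign was 0.65 against 0.56. The median standard error was 0.13 for members and 0.18 for all genes. Whether the smaller error or the larger changes go with the members' share of calls was not tested. Leaving out mitochondrial genes and rescaling the rest shifted the median log2 fold change of all genes from -0.0027 to 0.13, and then 26 members were called higher and 23 lower.

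**Figure D1:**
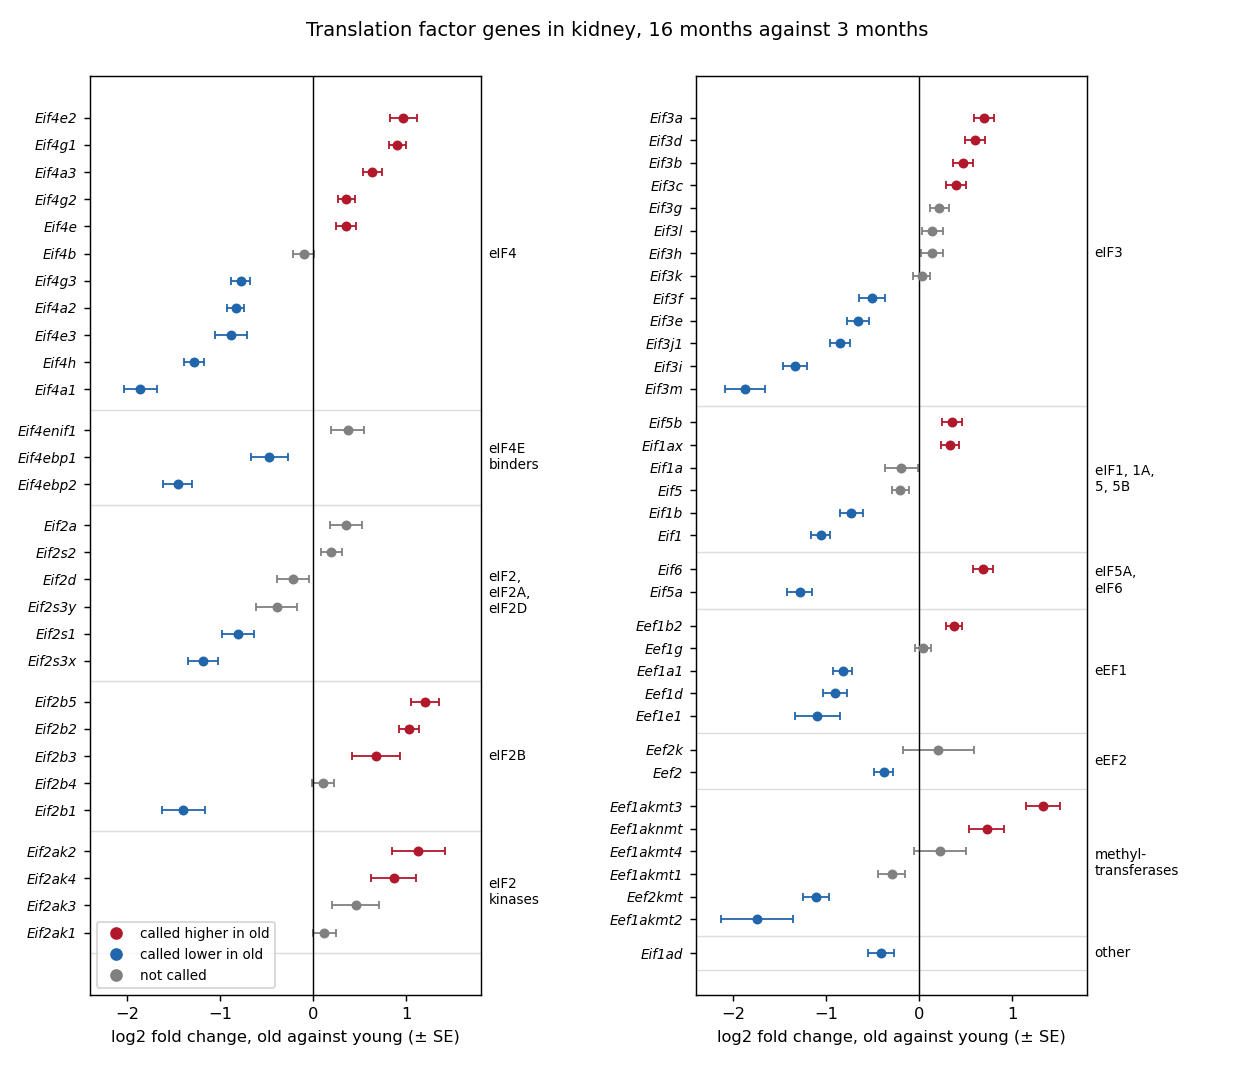
Log2 fold change of old against young kidneys (horizontal axis, points with bars of ± 1 SE) for the 64 translation factor genes, grouped by role; red points were called higher, blue points lower and gray points not called. Values run from -1.87 for Eif3m to 1.33 for Eef1akmt3, and rises and falls occur side by side within the eIF4, eIF2B and eIF3 groups.

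The members together took a smaller share of the reads in old kidneys. They held 0.737% to 0.788% of the reads of the table in young and 0.570% to 0.605% in old libraries, with no overlap. Eef1a1 and Eef2 alone made up 34.8% to 36.7% of the members' reads in young and 26.0% to 30.8% in old libraries. Without these 2 genes the others held 0.467% to 0.503% in young and 0.404% to 0.448% in old libraries. With mitochondrial reads left out, all members held 1.03% to 1.08% in young and 0.911% to 0.957% in old libraries, with no overlap. Without Eef1a1 and Eef2 and mitochondrial reads, the other members held 0.664% to 0.697% in young and 0.646% to 0.697% in old libraries, and the ranges overlapped.

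In the cap-binding complex and its relatives 10 of 11 eIF4 genes were called, 5 higher and 5 lower, and the groups did not overlap in these 10 (90.9%, against 59.7% of all genes called and 49.0% without overlap). The direction differed between related genes. The scaffold gene Eif4g1 (chromosome 16, 20668313 to 20692884, GRCm38) was at 991, 960.0, 989 and 991 normalized counts in the young libraries and at 1833, 1581, 1804, 2006 and 1993 in the old libraries. All old libraries exceeded all young ones, a 1.88-fold rise of the mean (log2 fold change 0.90 ± 0.09 (SE), adjusted p = 1.09e-07). Eif4g3, its closest relative in the scaffold family, went the other way and was at 1177, 1317, 1233 and 1353 normalized counts in the young libraries and at 679, 766, 624, 733 and 914 in the old libraries. Every old value lay below every young value (log2 fold change -0.78 ± 0.11 (SE), adjusted p = 4.18e-06). Eif4g2, which encodes a scaffold that lacks the eIF4E-binding site, was at 1635, 1571, 1738 and 1757 normalized counts in the young libraries and at 2236, 2272, 2314, 1969 and 1924 in the old libraries. The groups did not overlap (log2 fold change 0.35 ± 0.09 (SE), adjusted p = 0.00259), but with a trend over transcript length removed the difference was -0.072 and no longer called.

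The helicase genes of eIF4F fell. Eif4a1, the main helicase of eIF4F (chromosome 11, 69666936 to 69672423), was at 465, 525, 450.0 and 449.9 normalized counts in the young libraries and at 111, 208, 152, 108 and 95.5 in the old libraries. The highest old value, in old replicate 2, was below the lowest young value by more than 2-fold, and the mean was 3.50-fold lower in old (log2 fold change -1.86 ± 0.17 (SE), adjusted p = 4.35e-08). Eif4a2, which encodes a near-identical helicase, was at 617, 571, 580.4 and 588 in young and at 316, 364, 329.6, 312 and 332 normalized counts in old kidneys. It fell less (log2 fold change -0.83 ± 0.09 (SE), adjusted p = 3.93e-07). The small RNA gene Gm24616, which shares exon bases with Eif4a2, was at 4.91, 0.972, 1.96 and 0.905 in young and at 37.7, 21.9, 23.3, 21.5 and 7.43 normalized counts in old kidneys. Eif4h, which encodes a stimulator of the helicase (chromosome 5, 134619721 to 134639490), was at 675, 720.0, 709 and 695 normalized counts in the young libraries and at 303, 351, 291, 261 and 244 in the old libraries. The groups were again separate (log2 fold change -1.28 ± 0.11 (SE), adjusted p = 1.21e-08). Eif4b, the other stimulator, had a mean of 574 ± 8.80 (SD, n = 4) in young and 541 ± 91.9 (SD, n = 5) in old kidneys and was not called (log2 fold change -0.10 ± 0.11 (SE), adjusted p = 0.450). Eif4a3, whose product sits in the exon junction complex rather than in eIF4F, rose (log2 fold change 0.63 ± 0.11 (SE), adjusted p = 4.60e-05), although 29.3% of the 50-base sequences at its transcript end also occur in 3 other genes and its counts are uncertain for that reason.

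Among the cap-binding proteins the canonical gene changed least. Eif4e was at 319, 337, 349 and 381 normalized counts in the young libraries and at 476, 382, 408, 436 and 517 in the old libraries. The lowest old value lay only just above the highest young value (log2 fold change 0.35 ± 0.11 (SE), adjusted p = 0.00904), and the call was lost when a trend over transcript length (adjusted p = 0.175) or GC content (adjusted p = 0.0588) was removed. Eif4e2 encodes 4EHP, a cap-binding protein that does not engage eIF4G and represses translation. It was at 180.2, 195, 203 and 219 normalized counts in the young libraries and at 341, 309.6, 338, 547 and 460.4 in the old libraries, higher in every old library, most of all in old replicate 4 (log2 fold change 0.97 ± 0.15 (SE), adjusted p = 1.54e-05). Eif4e3, an atypical family member, was at 99.1, 92.3, 105 and 97.8 normalized counts in the young libraries and at 50.7, 54.7, 61.9, 63.4 and 37.1 in the old libraries. All old values lay below all young values (log2 fold change -0.89 ± 0.17 (SE), adjusted p = 0.000203). The gene Gm20696 shares exon bases with Eif4e3 on the same strand and went the opposite way, at 7.37, 6.80, 1.96 and 3.62 normalized counts in the young libraries and at 38.9, 28.4, 56.8, 43.8 and 55.2 in the old libraries, so reads in the shared bases cannot be assigned with certainty and its part in the fall of Eif4e3 was not tested.

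The eIF4E inhibitors were lower in old kidneys to very different degrees. Eif4ebp2, the gene of a 4E-BP that mTORC1 phosphorylates to release eIF4E (chromosome 10, 61428491 to 61452661), was at 1562, 1644, 1959 and 1362 normalized counts in the young libraries and at 456, 826, 703, 566 and 469 in the old libraries. The old libraries lay below all young libraries, with a mean 2.70-fold lower (log2 fold change -1.46 ± 0.15 (SE), adjusted p = 1.69e-07). Eif4ebp1 was at 72.9, 92.3, 66.7 and 68.8 normalized counts in the young libraries and at 56.6, 49.2, 81.1, 39.2 and 48.8 in the old libraries. Old replicate 3 lay among the young libraries, and the difference was called by a narrow margin (log2 fold change -0.47 ± 0.20 (SE), adjusted p = 0.0457). It was not called by edgeR (adjusted p = 0.0545) or DESeq2 (adjusted p = 0.0647) on recovered reads, nor without any 1 of 8 libraries, and stayed called without old replicate 3 (lowest adjusted p of any alternative, 0.00659). Eif4enif1, whose product carries eIF4E into the nucleus and to processing bodies, averaged 76.8 ± 10.5 (SD, n = 4) in young and 101 ± 24.9 (SD, n = 5) in old kidneys and was not called (adjusted p = 0.0877), but was called higher under 3 alternatives (adjusted p 0.0268 to 0.0361).

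**Figure D2:**
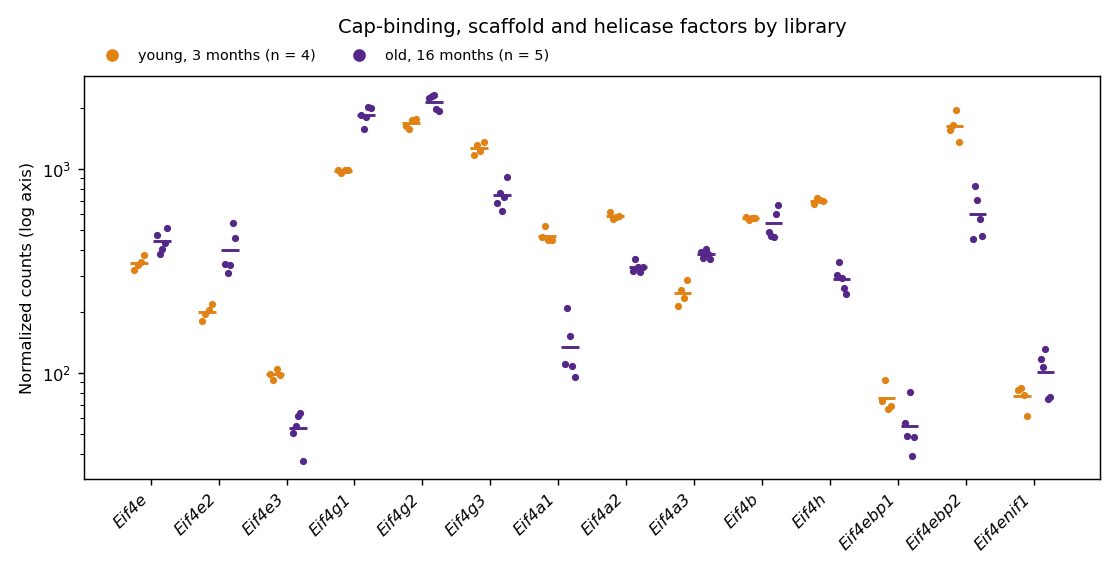
Normalized counts (vertical log axis) of the eIF4 genes and the eIF4E binders in each library, young in orange (n = 4) and old in purple (n = 5), with horizontal bars at the group means. Eif4g1 and Eif4e2 rise while Eif4a1, Eif4h and Eif4ebp2 fall without overlap, and Eif4b overlaps.

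Ratios of related genes within a library, taken after a pseudocount of 1, depend on its size factor through that pseudocount alone. The log2 ratio was compared between ages for 8 pairs with an exact permutation test, two-sided, whose smallest possible p-value with 4 and 5 libraries is 0.0159. In 7 of the 8 the groups did not overlap, and the exact permutation p was 0.0159, or 0.0181 adjusted over the 8 pairs. The share without overlap among ratios of other gene pairs was not taken, and 49.0% of single genes did not overlap. Both genes of each of these 7 pairs were also called singly, so the ratios are not independent of those calls. The ratio of Eif4g1 to Eif4g3 moved most, by 1.68. Its mean was -0.37 ± 0.10 (SD, n = 4) in young and 1.32 ± 0.22 (SD, n = 5) in old kidneys. The ratio of Eif4g1 to Eif4g2 rose by 0.55. The ratio of Eif4e to Eif4e3 rose by 1.24, while that of Eif4e to Eif4e2 fell by 0.62, where the young libraries lay between 0.78 and 0.82 and the old libraries between -0.33 and 0.48. Eif4a1 fell further than Eif4a2, and their log2 ratio went from -0.32 ± 0.13 to -1.34 ± 0.39. The ratio of Eif4ebp1 to Eif4ebp2 rose by 0.98 and that of Eif1 to Eif1b fell by 0.33. Eif1a to Eif1ax differed by -0.52 with overlapping groups (exact permutation p = 0.0635). A ratio shows unequal change and not which gene changed.

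**Figure D3:**
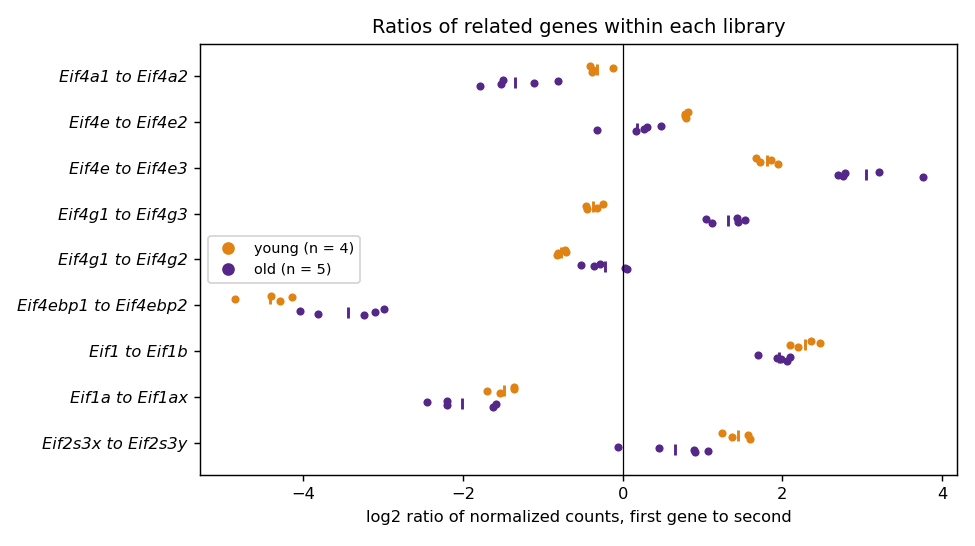
Log2 ratio of normalized counts of the first gene to the second (horizontal axis) in each library, young in orange (n = 4) and old in purple (n = 5), with vertical ticks at the group means. Only the ratio of Eif1a to Eif1ax overlaps between the ages among the 9 pairs drawn, and the largest shift is that of Eif4g1 to Eif4g3, from -0.37 to 1.32.

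The genes of eIF2, which carries the initiator tRNA, were lower or not called. Eif2s1 encodes the alpha subunit, on which the stress kinases act. It was at 165, 133, 161 and 151 normalized counts in the young libraries and at 56.6, 95.2, 109, 80.2 and 103 in the old libraries. Every old value was below every young value, lowest in old replicate 1 (log2 fold change -0.81 ± 0.17 (SE), adjusted p = 0.000511). Eif2s2, the beta subunit, averaged 756 ± 90.2 (SD, n = 4) in young and 867 ± 114 (SD, n = 5) in old kidneys and was not called (adjusted p = 0.145), though it was called higher under 3 alternatives (adjusted p 0.0158 to 0.0316). The gamma subunit has a gene on each sex chromosome. The X-linked Eif2s3x (chromosome X, 94188707 to 94212862) was at 149, 163, 178 and 144 normalized counts in the young libraries and at 54.2, 84.2, 53.7, 81.2 and 78.5 in the old libraries. The groups did not overlap (log2 fold change -1.18 ± 0.16 (SE), adjusted p = 5.30e-06). The Y-linked Eif2s3y was at 62.2, 54.4, 68.6 and 47.1 in young and at 56.6, 61.3, 28.4, 38.2 and 41.4 normalized counts in old kidneys. Its groups overlapped and it was not called (log2 fold change -0.39 ± 0.22 (SE), adjusted p = 0.131). The log2 ratio of the X-linked to the Y-linked copy was 1.44 ± 0.17 (SD, n = 4) in young and 0.65 ± 0.46 (SD, n = 5) in old kidneys, given as values with no test. Eif2a and Eif2d, alternative initiator tRNA factors that are not part of eIF2, were not called (log2 fold changes 0.35 and -0.22), and Eif2a was called higher under 3 alternatives.

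Of the 5 subunit genes of the exchange factor eIF2B, 3 were higher (60.0%, against 29.2% of all genes), 1 was lower (against 30.5%) and 1 was not called. Eif2b5, which encodes the catalytic epsilon subunit (chromosome 16, 20498817 to 20509323), was at 106, 98.1, 106 and 100.5 normalized counts in the young libraries and at 224, 171, 233, 257 and 328 in the old libraries. The young libraries lay within a narrow band and all old libraries lay above it, a 2.36-fold rise of the mean (log2 fold change 1.20 ± 0.15 (SE), adjusted p = 1.73e-06). Eif2b2, the beta subunit (chromosome 12, 85219481 to 85226628), was at 189, 219, 209.8 and 206 normalized counts in the young libraries and at 417, 464, 399.6, 457 and 369 in the old libraries. It rose in all old libraries (log2 fold change 1.03 ± 0.10 (SE), adjusted p = 1.33e-07). Eif2b3, the gamma subunit, had a mean of 26.5 ± 7.75 (SD, n = 4) in young and 43.1 ± 12.8 (SD, n = 5) in old kidneys. Its groups overlapped, and its call (log2 fold change 0.68 ± 0.26 (SE), adjusted p = 0.0291) was lost without young replicate 1, young replicate 2, old replicate 3 or old replicate 5, and with the table total or thinned reads. Eif2b1, the alpha subunit that senses phosphorylated eIF2, averaged 72.2 ± 12.8 (SD, n = 4) in young and 27.6 ± 8.08 (SD, n = 5) in old kidneys, a fall without overlap (log2 fold change -1.40 ± 0.23 (SE), adjusted p = 4.89e-05). Eif2b4, the delta subunit, was not called (log2 fold change 0.10 ± 0.12 SE). No eIF2B change was shared by all subunits of the complex.

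Of the 4 eIF2 kinase genes, 2 were higher (against 29.2% of all genes) and 2 were not called. Eif2ak2, the kinase PKR that responds to double-stranded RNA, was at 8.19, 19.4, 18.6 and 26.3 normalized counts in the young libraries and at 42.4, 29.5, 37.5, 44.8 and 37.1 in the old libraries. All old values exceeded all young ones, at few reads per library (log2 fold change 1.13 ± 0.28 (SE), adjusted p = 0.00216). Eif2ak4, the kinase GCN2 that responds to uncharged tRNA, was at 26.2, 18.5, 19.6 and 29.9 normalized counts in the young libraries and at 29.5, 47.0, 36.5, 57.8 and 48.8 in the old libraries. Old replicate 1 fell within the young range (log2 fold change 0.86 ± 0.24 (SE), adjusted p = 0.00451). Eif2ak3, the endoplasmic reticulum kinase PERK, was at 40.1, 40.8, 52.0 and 49.8 in young and at 34.2, 44.8, 89.2, 73.7 and 94.4 normalized counts in old kidneys. Old replicates 3, 4 and 5 were above the young range and old replicate 1 was below it, and the gene was not called (log2 fold change 0.45 ± 0.26 (SE), adjusted p = 0.133) until old replicate 1 was left out (adjusted p = 0.0166). Eif2ak1, the heme-regulated kinase HRI, was at 185, 249, 178 and 200.1 in young and at 224, 252, 220.1, 192 and 208 normalized counts in old kidneys. Its groups overlapped throughout (log2 fold change 0.12 ± 0.12 (SE), adjusted p = 0.436).

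Of 8 tested genes of the response to eIF2 phosphorylation, 3 were called higher (37.5%, against 29.2% of all genes) and 1 lower (12.5%, against 30.5%), with 59.7% of all genes called (median 0.16 on the log2 scale). The 3 that rose were Ddit3, Sesn2 and Ddit4, and the 1 that fell was Ppp1r15b. The other induced genes Nupr1 (log2 fold change -0.54 ± 0.30, SE), Ppp1r15a (-0.33 ± 0.25) and Vldlr (0.10 ± 0.13) were not called. Atf3, Trib3 and Chac1, also on the list, had no values in the table. Asns, the asparagine synthetase gene that this response induces, was too low to be tested, at 15.6, 11.7, 9.80 and 12.7 in young and at 3.54, 7.66, 9.13, 2.80 and 5.30 normalized counts in old kidneys, and all of its old values lay below the young ones. Atf4, its central transcription factor, was at 587, 504, 619.7 and 643 normalized counts in the young libraries and at 618, 538, 573, 769 and 1029 in the old libraries. Only old replicates 4 and 5 exceeded the young range, and it was not called (log2 fold change 0.22 ± 0.15 (SE), adjusted p = 0.208), but it was called higher with mitochondrial genes left out (0.37, adjusted p = 0.0349) and with the length trend removed (0.49, adjusted p = 0.0117). Ddit3, which encodes CHOP, was at 43.4, 31.1, 43.1 and 47.1 normalized counts in the young libraries and at 76.6, 47.0, 91.3, 105 and 130.5 in the old libraries. Its lowest old value, in old replicate 2, fell just inside the young range (log2 fold change 1.05 ± 0.24 (SE), adjusted p = 0.000854). Sesn2, a stress-induced leucine sensor that restrains mTORC1, was at 111, 95.2, 109 and 66.1 normalized counts in the young libraries and at 461, 304, 281, 336 and 261 in the old libraries. It rose in every old library (log2 fold change 1.77 ± 0.17 (SE), adjusted p = 6.19e-08). Ppp1r15b, whose product targets a phosphatase to eIF2 also without stress, was at 283, 326, 344 and 342 normalized counts in the young libraries and at 202, 221, 189, 186 and 228 in the old libraries. It fell without overlap (log2 fold change -0.66 ± 0.11 (SE), adjusted p = 4.89e-05).

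The eIF3 complex is the largest initiation factor. Of 13 subunit genes in the table, 4 were higher (Eif3a, Eif3b, Eif3c and Eif3d), 5 were lower (Eif3e, Eif3f, Eif3i, Eif3j1 and Eif3m) and 4 were not called (Eif3g, Eif3h, Eif3k and Eif3l). These shares of 30.8% higher and 38.5% lower lay near the 29.2% and 30.5% of all genes. In the 9 called genes the groups did not overlap (69.2%, against 49.0%). With the length trend removed, the 4 genes not called were called higher and no eIF3 call was lost. With mitochondrial genes left out, Eif3g, Eif3h and Eif3l were called higher too. Eif3a, the scaffold subunit (chromosome 19, 60761117 to 60790658), was at 405, 383, 319.6 and 358 normalized counts in the young libraries and at 583, 503, 553, 639 and 691 in the old libraries. It had the largest rise of the complex (log2 fold change 0.69 ± 0.11 (SE), adjusted p = 2.59e-05). Eif3d, a subunit that can itself bind the cap, rose by 0.60 ± 0.11 (SE), Eif3b by 0.47 ± 0.11 and Eif3c by 0.39 ± 0.11 on the log2 scale. Eif3i, a propeller subunit that assembles with eIF3b and eIF3g (chromosome 4, 129591960 to 129600648), was at 403, 369, 363 and 364 normalized counts in the young libraries and at 114, 176, 169, 157 and 130.5 in the old libraries. All old values lay well below the young values (log2 fold change -1.34 ± 0.13 (SE), adjusted p = 6.84e-08). Of its partners Eif3b rose, and Eif3g was not called (log2 fold change 0.22 ± 0.10 SE) but was called higher under 5 alternatives (adjusted p 5.33e-05 to 0.0474).

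Eif3m fell about as far as Eif4a1 (log2 fold changes of -1.87 and -1.86), the lowest estimates among the 64 genes. It encodes a subunit of the core that binds the ribosome (chromosome 2, 104999656 to 105017080) and was at 218, 181, 235 and 196 normalized counts in the young libraries and at 43.6, 96.3, 63.9, 35.4 and 56.2 in the old libraries. Old replicate 2 was highest among the old libraries, still below the young range (log2 fold change -1.87 ± 0.21 (SE), adjusted p = 5.28e-07). Its transcript end shares 43.0% of its 50-base sequences with the gene Gm7658, so its counts are uncertain. Eif3e, for which the shared portion was 30.4%, fell by 0.66 ± 0.12 (SE) and Eif3f by 0.51 ± 0.14. Eif3j1, the loosely attached subunit at the decoding center, fell by 0.85 ± 0.11. Eif3h, Eif3k and Eif3l, members of the same core as Eif3a, Eif3c, Eif3e, Eif3f and Eif3m, had log2 fold changes of 0.13, 0.03 and 0.14 and were called higher with the length trend removed. The shared portion for Eif3h was 20.8%, so its counts are uncertain too.

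**Figure D4:**
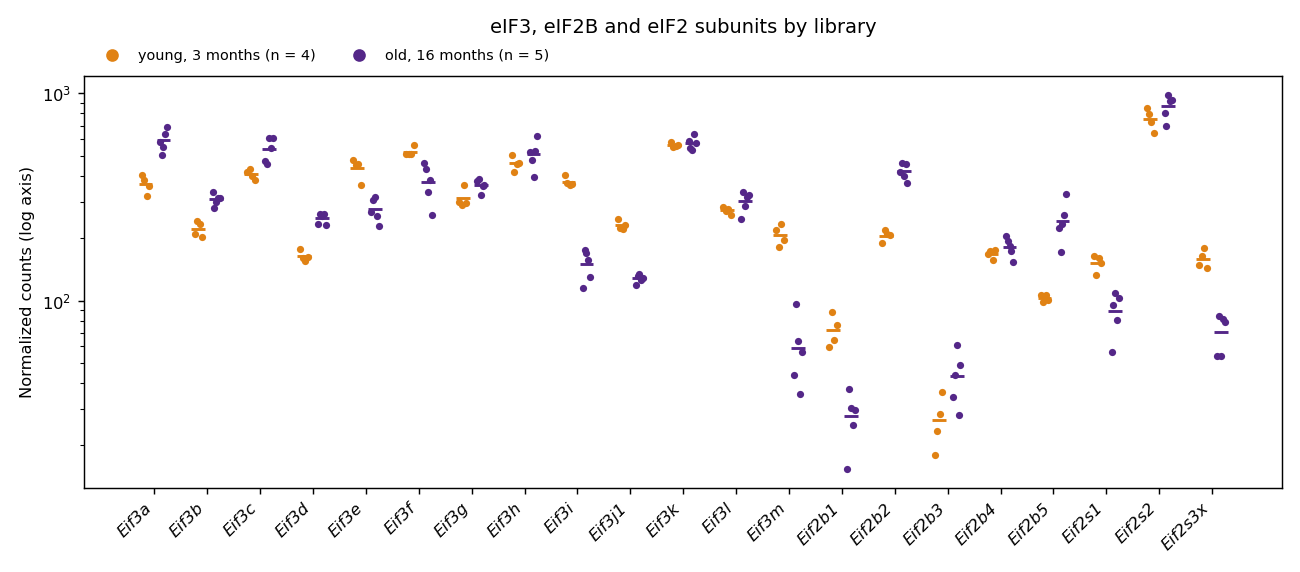
Normalized counts (vertical log axis) of the eIF3, eIF2B and eIF2 subunit genes in each library, young in orange (n = 4) and old in purple (n = 5), with horizontal bars at the group means. Within eIF3, Eif3a to Eif3d lie higher in old libraries and Eif3i, Eif3j1 and Eif3m lower, while Eif3g, Eif3h, Eif3k and Eif3l were not called.

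Of the 6 genes that act on start codon choice and subunit joining, 2 fell, 2 rose and 2 were not called, shares of 33.3% each way that lay near the 30.5% and 29.2% of all genes. Eif1, whose product keeps scanning ribosomes from starting at weak sites, was at 1957, 2280.5, 2306 and 1974 normalized counts in the young libraries and at 1002, 1216, 1023, 927 and 946 in the old libraries. All old values lay below all young values (log2 fold change -1.06 ± 0.10 (SE), adjusted p = 4.35e-08). Eif1b, its close relative, was at 382, 410.0, 537 and 430.0 normalized counts in the young libraries and at 308, 284, 268, 234 and 226 in the old libraries. It fell by less (log2 fold change -0.73 ± 0.12 (SE), adjusted p = 4.66e-05). Eif1ax, an X-linked gene of eIF1A, was at 281, 279.8, 288 and 259.8 normalized counts in the young libraries and at 365, 351, 320.5, 341 and 365 in the old libraries. The groups did not overlap (log2 fold change 0.33 ± 0.10 (SE), adjusted p = 0.00686), but the call was lost with a length trend removed (adjusted p = 0.252). Eif1a, the autosomal copy, was at 109, 109, 88.2 and 88.7 in young and at 79.0, 63.4, 106, 73.7 and 118 normalized counts in old kidneys. It overlapped between ages (log2 fold change -0.19 ± 0.18 (SE), adjusted p = 0.366). Eif5b, the GTPase that joins the subunits, was called higher with overlapping groups (log2 fold change 0.35 ± 0.11 (SE), adjusted p = 0.0107), but with the length trend removed its difference was -0.064 and not called (adjusted p = 0.602). Eif5, the factor that triggers GTP hydrolysis by eIF2, was not called (log2 fold change -0.20 ± 0.10 (SE), adjusted p = 0.0754) but was called lower under 5 alternatives (adjusted p 0.00833 to 0.0469). Eif1ad, named for a domain like that of eIF1A, fell by 0.41 ± 0.14 (SE), a call lost with mitochondrial genes left out (adjusted p = 0.106), with the length trend removed (0.0909) and without young replicate 4 (0.0593).

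Eif5a and Eif6 moved in opposite directions. Eif5a encodes the hypusine-bearing factor that relieves stalls at difficult peptide bonds (chromosome 11, 69916714 to 69921958). It was at 1766, 1821, 1931 and 1801 normalized counts in the young libraries and at 711, 1119, 773, 662 and 581 in the old libraries. Old replicate 2 was the nearest to the young range and still below it (log2 fold change -1.29 ± 0.14 (SE), adjusted p = 2.32e-07). The enzymes that make hypusine went the other way: Dohh, the hydroxylase of the second step, was at 104, 107, 114 and 104 normalized counts in the young libraries and at 293, 231, 228, 282 and 269 in the old libraries (log2 fold change 1.27 ± 0.12 (SE), adjusted p = 4.32e-08), and Dhps, which carries out the first step, rose by 0.72 ± 0.18 (SE). Eif6, which keeps ribosomal subunits apart, was at 265, 277, 236 and 284 normalized counts in the young libraries and at 453, 432, 399.6, 481 and 373 in the old libraries. Every old value was above every young value (log2 fold change 0.68 ± 0.11 (SE), adjusted p = 2.04e-05).

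Eef1a1 and Eef2, the core of the elongation machinery, both fell. Eef1a1 (chromosome 9, 78478449 to 78489151), which delivers aminoacyl-tRNA, was at 7425, 7797, 7029.9 and 6847 normalized counts in the young libraries and at 3714, 4349, 3605, 4473 and 4464 in the old libraries. Its mean was 1.77-fold lower in old, with no overlap (log2 fold change -0.82 ± 0.10 (SE), adjusted p = 9.88e-07). Its transcript end shares 35.0% of its 50-base sequences with 16 other genes, so its counts are uncertain. Eef2 (chromosome 10, 81176631 to 81182498), the translocase, was at 6638, 6285, 6487 and 6102 normalized counts in the young libraries and at 5028, 5081, 3999, 5121 and 5336 in the old libraries. All old values lay below the young values, old replicate 3 lowest by a wide gap (log2 fold change -0.38 ± 0.10 (SE), adjusted p = 0.00285). Eef2k, the kinase that inhibits eEF2, had few reads, at 4.91, 11.7, 9.80 and 7.24 in young and at 8.25, 5.47, 12.2, 11.2 and 11.7 normalized counts in old kidneys. Its groups overlapped and no difference was detectable at this depth (log2 fold change 0.20 ± 0.38 (SE), adjusted p = 0.666), with a sign that turned when young replicate 1 was left out. The exchange factor subunits of eEF1A were divided. Eef1d fell by 0.90 ± 0.13 (SE), Eef1b2 rose by 0.38 ± 0.09, and the scaffold Eef1g was not called (log2 fold change 0.04 ± 0.09). Eef1e1, a scaffold of the tRNA synthetase complex despite its name, fell by 1.10 ± 0.24. Eef1d shares exon bases on its strand with Naprt, which was not called (adjusted p = 0.441). Eef1a2, Eif3j2, Eif4e1b, Eif4ebp3 and Eif5a2 were not analysed here.

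A TOP list of 9 members known for this class of mRNA (Eef1a1, Eef1b2, Eef1d, Eef1g, Eef2, Eif3e, Eif3f, Eif3h and Eif4b) had 1 gene called higher (11.1%, against 29.2% of all genes) and 5 lower (55.6%, against 30.5%), with a median log2 fold change of -0.38. With the length trend removed none of these calls was lost. Eef1g (0.28, adjusted p = 0.00762) and Eif3h (0.48, adjusted p = 0.00205) were then called higher too. Eif3h was also called higher with mitochondrial genes left out. Shared sequence makes the counts of Eef1a1, Eif3e and Eif3h uncertain. RefSeq promoter windows (GRCm38.p6) were read to show what lies at the start sites of the listed genes. Each ran from 10 bases before to 20 bases from the annotated start, 5′ to 3′ on the gene's strand. The search, on the sense strand only, was for a C followed by at least 4 bases that are each C or T, and the longest such tract is in capitals. Windows were read for 5 of the 9, and they are shown here with 4 members outside the list, the largest eIF2B rises and the largest falls of the eIF4 group and its inhibitors, for comparison.
Eef1a1: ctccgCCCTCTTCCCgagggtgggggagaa
Eef1b2: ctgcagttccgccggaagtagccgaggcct
Eef2: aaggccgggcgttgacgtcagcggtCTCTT
Eif3f: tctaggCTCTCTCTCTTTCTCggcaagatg
Eif4b: tcccgtcggacgccgcgccaCCCCCTCgcg
Eif2b5: CTCTTTCTCTCCCTgcaactacaccttcgc
Eif2b2: ccgagcggaagttgaCCTCTCTCggcccgg
Eif4a1: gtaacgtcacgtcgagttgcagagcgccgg
Eif4ebp2: cgcagcgggacgaccgggcgagagcaggcg
The windows are chr9:78481705-78481734 (minus strand) for Eef1a1, chr1:63176821-63176850 (plus) for Eef1b2, chr10:81176621-81176650 (plus) for Eef2, chr7:108934405-108934434 (plus) for Eif3f, chr15:102073763-102073792 (plus) for Eif4b, chr16:20498807-20498836 (plus) for Eif2b5, chr12:85219471-85219500 (plus) for Eif2b2, chr11:69672404-69672433 (minus) for Eif4a1 and chr10:61452650-61452679 (minus) for Eif4ebp2. Tracts across the annotated start were found in Eef1a1 and Eif3f, which fell, and in Eif2b5, which rose (14 bases). Tracts after the start were found in Eef2, which fell, in Eif2b2, which rose, and in Eif4b, which was not called. The tract of Eef2 ends at the last base of its window and that of Eif2b5 begins at the first. Their full lengths are therefore not known. Eef1b2, which rose, and Eif4a1 and Eif4ebp2, which fell, had none. Among members not shown, Eif2s3x, which fell, had a tract of 12 bases across its start. Eif4g1, which rose, had a tract of 6 bases after its start. Eif3a and Eef1aknmt, which rose, and Eif3m, Eif4h and Eef2kmt, which fell, had none.

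Over all members, rises and falls occurred with and without a tract. A window was found for 51 members, and 25 of their 66 windows (37.9%) held a tract, against 35.8% of all 32851 windows. Of the 21 members with a tract, 7 were called higher and 7 lower, with a median log2 fold change of 0.12. Of the 30 without, 9 were called higher and 13 lower, with a median of -0.05. Over all genes 29.2% were called higher and 30.5% lower. A match describes the letters of the window and not a functional site.

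Enzymes that methylate elongation factors were also called in both directions, 2 higher and 2 lower of 6 (33.3% each way, near the 29.2% and 30.5% of all genes). Eef1akmt3, a lysine methyltransferase of eEF1A, had the largest estimated rise of the members (chromosome 10, 127031004 to 127041513) and was at 29.5, 27.2, 32.4 and 41.6 normalized counts in the young libraries and at 108, 78.8, 71.0, 80.2 and 78.5 in the old libraries. All old values were above all young ones, with old replicate 1 highest (log2 fold change 1.33 ± 0.18 (SE), adjusted p = 5.63e-06). Eef1aknmt, which methylates eEF1A at its amino terminus and at a lysine, was at 34.4, 40.8, 42.2 and 35.3 normalized counts in the young libraries and at 75.4, 55.8, 45.6, 78.4 and 67.9 in the old libraries. The groups did not overlap (log2 fold change 0.72 ± 0.19 (SE), adjusted p = 0.00335). Eef2kmt, the lysine methyltransferase of eEF2 (chromosome 16, 5244152 to 5255983), was at 145, 149.6, 151 and 124 normalized counts in the young libraries and at 61.3, 71.1, 59.8, 70.0 and 64.7 in the old libraries. It fell without overlap (log2 fold change -1.11 ± 0.14 (SE), adjusted p = 1.40e-06). Eef1akmt2, another lysine methyltransferase of eEF1A, averaged 34.7 ± 6.06 (SD, n = 4) in young and 11.8 ± 9.89 (SD, n = 5) in old kidneys, and it fell (log2 fold change -1.74 ± 0.39 (SE), adjusted p = 0.000815) with old replicate 4 inside the young range. Eef1akmt1 and Eef1akmt4 were not called (log2 fold changes -0.30 ± 0.14 and 0.23 ± 0.28, SE).

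Genes that work beside the factors were taken from 7 lists, of which 54 of 90 tested genes were called, against 59.7% of all genes. The counts by direction in these lists stand beside 29.2% higher and 30.5% lower over all genes. Among 14 genes leading from mTORC1 to translation, 4 were higher and 4 lower (median log2 fold change 0.07). Rheb, the GTPase that activates mTORC1, was at 217, 262, 265 and 225 normalized counts in the young libraries and at 109.6, 102, 101, 114 and 93.4 in the old libraries. It fell in all old libraries (log2 fold change -1.21 ± 0.12 (SE), adjusted p = 1.09e-07). Pdcd4, an inhibitor of eIF4A that S6 kinase marks for removal, was at 128, 103, 109.8 and 111 normalized counts in the young libraries and at 226, 193, 288, 320.0 and 284 in the old libraries. It rose in all old libraries (log2 fold change 1.19 ± 0.14 (SE), adjusted p = 1.08e-06), while Eif4a1 fell. Rps6kb1, the S6 kinase gene, averaged 109 ± 16.8 (SD, n = 4) in young and 168 ± 36.0 (SD, n = 5) in old kidneys (log2 fold change 0.61 ± 0.16 (SE), adjusted p = 0.00311). The list's other rises were Deptor and Larp4 and its other falls were Mlst8, Akt1s1 and Larp1, while Mtor, Rptor, Rps6kb2, Rps6, Tsc1 and Tsc2 were not called.

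Among 17 partners of the cap and the poly(A) tail, 9 were higher (52.9%) and 4 lower (23.5%), with a median of 0.34. Pabpc1, the main cytoplasmic poly(A)-binding protein, was at 1825, 1770.3, 1594 and 1489 normalized counts in the young libraries and at 2454, 2506, 2342, 2688 and 2640.4 in the old libraries. It rose without overlap (log2 fold change 0.60 ± 0.09 (SE), adjusted p = 1.56e-05). Pabpc4, its relative, was at 513, 467, 439 and 477 normalized counts in the young libraries and at 109.6, 163, 173, 166 and 175 in the old libraries. It fell in every old library (log2 fold change -1.60 ± 0.13 (SE), adjusted p = 8.73e-09). Gigyf2, the partner through which 4EHP silences mRNAs, was at 106, 119, 140.2 and 93.2 normalized counts in the young libraries and at 275, 299, 306, 220.1 and 272 in the old libraries. Like Eif4e2 it was higher in all old libraries (log2 fold change 1.26 ± 0.14 (SE), adjusted p = 2.76e-07). Mknk1 and Mknk2, kinases that phosphorylate eIF4E, both fell (log2 fold changes -0.71 ± 0.22 and -0.47 ± 0.13, SE).

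Later steps of translation also held changes in both directions. Of 12 termination, recycling and rescue genes, 4 were higher and 4 lower (median 0.08). Etf1, which recognizes stop codons, averaged 204 ± 10.1 (SD, n = 4) in young and 293 ± 26.7 (SD, n = 5) in old kidneys (log2 fold change 0.52 ± 0.11 (SE), adjusted p = 0.000375). Ltn1, the ligase that tags peptides on stalled ribosomes, had the list's largest rise (log2 fold change 0.94 ± 0.14 (SE), adjusted p = 1.04e-05). Mcts1, which recycles the small subunit and helps reinitiation with Denr, had its largest fall (log2 fold change -1.25 ± 0.13 (SE), adjusted p = 2.23e-07), and Denr fell too (log2 fold change -0.54 ± 0.13 SE). Of 7 hypusine and diphthamide enzymes, 3 were higher and 1 lower (median 0.42). Dph3, which serves the diphthamide of eEF2, had the only fall (log2 fold change -0.32 ± 0.11 (SE), adjusted p = 0.0184), and its call was lost under 4 alternatives. Of 20 cytosolic tRNA synthetase genes, 9 were higher and 2 lower (median 0.25), and of the scaffold genes of their complex in the same list Aimp2 was higher and Aimp1 was not called. Rars, for arginine, averaged 75.3 ± 9.02 (SD, n = 4) in young and 148 ± 25.4 (SD, n = 5) in old kidneys (log2 fold change 0.96 ± 0.15 (SE), adjusted p = 2.36e-05), and Aars, for alanine, averaged 170.1 ± 26.6 (SD, n = 4) in young and 99.6 ± 9.72 (SD, n = 5) in old kidneys (log2 fold change -0.76 ± 0.14 (SE), adjusted p = 0.000112).

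Of 10 mitochondrial translation factors, 3 were higher and 2 lower (median 0.23). Mtif3, an initiation factor of mitochondria, averaged 103 ± 13.9 (SD, n = 4) in young and 194 ± 23.4 (SD, n = 5) in old kidneys (log2 fold change 0.92 ± 0.13 (SE), adjusted p = 9.45e-06). Tsfm, the exchange factor for the elongation factor Tufm, averaged 131 ± 16.7 (SD, n = 4) in young and 47.8 ± 5.39 (SD, n = 5) in old kidneys (log2 fold change -1.44 ± 0.16 (SE), adjusted p = 2.76e-07). Tufm itself was not called (log2 fold change 0.07 ± 0.11 (SE), adjusted p = 0.589), but was with the length trend removed (0.33, adjusted p = 0.0127).

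The difference between ages rose with transcript length among the members as among all genes. Over 63 members with an annotated transcript, Spearman's rank correlation of the log2 fold change with the length of the longest transcript was 0.284, and over 12455 genes it was 0.284, both given as a description. The points share libraries and are not independent. Members called higher had a median length of 3473 bases, those called lower 2514 and those not called 2299. Over all genes the medians were 3947, 2441 and 3114. With the length trend removed from each library, 38 of 44 calls remained. The calls of Eif1ad, Eif1ax, Eif4e, Eif4ebp1, Eif4g2 and Eif5b were lost, the sign of Eif4g2 and Eif5b turned, and 9 members were newly called. Libraries of the old group were not alike either. In 21 of the 45 called members (46.7%) the old value nearest to the young mean was that of old replicate 2, as it was in 37.5% of all called genes. Without old replicate 2, 46 members were called, 44 of them among the 45.

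**Figure D5:**
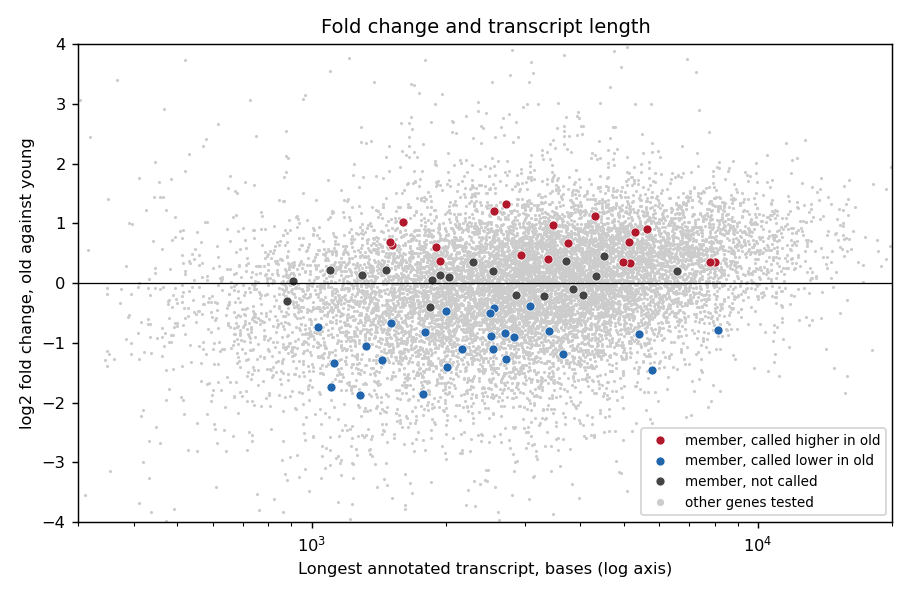
Log2 fold change of old against young kidneys (vertical axis) against the length of the longest annotated transcript in bases (horizontal log axis), for the members (large points, red called higher, blue called lower, dark gray not called) over the other genes tested (small light points). Called falls have a median length of 2514 bases and called rises one of 3473, and 118 of the 12455 genes, none of them a member, lie beyond the axes.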

How the data were processed

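RNA of whole kidneys was measured in 9 libraries made, per the labels, from 500 ng of total RNA (integrity number 7.4 to 7.6) with an oligo(dT)-primed kit that reads transcript 3′ ends by strand. The labels and the study's methods name different versions of the kit. Per the submitters' processing notes, the authors aligned reads to GRCm39 with TopHat2 2.0.10, Bowtie 1.0.0 and SAMtools 0.1.19 and counted them with HTSeq 0.6.1. The deposited table gives a count-like signal, the reads of a gene divided by the authors' size factor for that library. Genes of few reads were absent (lowest mean 4.49), by a rule not given in the sources used here. Whole reads were recovered by setting 1 read to a library's lowest value above 0, which made 100% of values whole (tolerance 0.02 read). A floor of 3 reads is 4.72e-05% to 6.69e-05% of a library, which covers counting error only.

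Groups came from the age in the labels. The test was limma 3.58.1 (R 4.3.3, eBayes with a variance trend) on log2(normalized count + 1), old against young, for genes with at least 10 normalized counts in at least 4 libraries, with Benjamini-Hochberg adjustment over 12667 genes and no covariate. Fold changes on this scale understate those of low genes. On the recovered reads edgeR 4.0.16 and DESeq2 1.42.0 each called 44 members. Paralog ratios were tested by exact permutation (SciPy 1.17.1). Positions, lengths and shared 50-base sequences in the last 500 bases came from GENCODE vM21 (GRCm38, not the authors' build), matched by symbol for 63 of 64 members. Start-site sequences came from RefSeq. The members, the lists and the tests were chosen with earlier results of these data known.

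Values per library are given for the 8 largest rises and 8 largest falls among called members with a mean of at least 50, for regulatory genes and for paralog pairs. In the other lists the largest rise and fall and a few known genes are named, with values per library, means or fold changes. Other genes are given by their fold change or count. Genes that overlap a member (Gm20696, Gm24616, Naprt) were chosen after their values were seen. Alternatives were pseudocounts of 0.1 and 5, no filter, a mean of at least 100, TMM factors, the table total, mitochondrial genes left out with rescaling, robust eBayes, edgeR, DESeq2, thinned reads, length trend removal and leaving out each library. A GC trend removal and a restriction to members with at most 10% shared sequence were chosen after seeing the data.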

Additional observations from a re-analysis of the deposited data

Results flagged for a closer look

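In 6 of 128 groups examined (named genes and ratios, by age), the highest or lowest library lay far from the others by Dixon's criterion, where chance alone gives about 1 in 20 groups, or 6.4. On the log2(normalized count + 1) scale, Eef1akmt3 was 6.77 in old replicate 1, with the other old libraries at 6.17 to 6.34. Eif4g1 was 9.91 in young replicate 2, below a tight range of the other young libraries (9.95 to 9.95). Eif3i was 8.66 in young replicate 1, with the other young libraries at 8.51 to 8.53. Eef2 was 11.97 in old replicate 3, with the other old libraries at 12.30 to 12.38. Pabpc4 was 6.79 in old replicate 1, with the others at 7.36 to 7.46. The log2 ratio of Eif4a1 to Eif4a2 was -0.12 in young replicate 2, with the other young libraries at -0.41 to -0.37. None of these values crossed into the range of the other age.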

How the results depend on the processing

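Counts of called members moved by less than 1.5 times under every alternative run. Members called went from 45 to between 34 (mean of at least 100, where 44 were tested) and 49 (mitochondrial genes left out), and to between 43 and 46 without each library in turn. Members called higher ranged from 15 to 26 and without each library from 19 to 22. Members called lower ranged from 19 to 27 and without each library from 24 to 25. Those with at least a 1.5-fold change ranged from 24 to 34 and without each library from 32 to 36. Called genes of the 7 other lists ranged from 39 to 61, and without each library from 51 to 57, and paralog pairs from 7 to 8. With only the 58 members of little shared sequence, 40 were called. Of 55 named genes, 10 changed call or sign under some alternative. The difference for Eef2k, never called, was 0.20 and became -0.12 with the length trend removed and -0.000871 to 0.374 without each library in turn, and that for Eif4g2 was -0.072 with the length trend removed. The calls of Eif4ebp1 were lost under 13 alternatives (adjusted p 0.00659 to 0.280 over all), those of Eif1ax and Eif4e with the length or GC trend removed and that of Dph3 under 4. Newly called were Atf4 with mitochondrial genes left out (adjusted p = 0.0349) or the length trend removed (0.0117), Tufm with the latter (0.0127), Eif2ak3 without old replicate 1 (0.0166), Eif2s3y without old replicate 2 (0.0497) and, by exact permutation, the ratio of Eif1a to Eif1ax without young replicate 3 (0.0357). Over all members, calls were also lost for Eif2b3 under 6 alternatives, Eif1ad under 3 and Eif5b under 1. Further members were newly called, Eif3g and Eif5 under 5 alternatives each, Eif2a, Eif2s2 and Eif4enif1 under 3 each, Eif3h and Eif3l under 2 each and Eef1akmt1, Eef1g, Eif2b4 and Eif3k under 1 each. Signs also turned for Eif3k, under 3, and for Eef1akmt1, Eef1g, Eif4b and Eif5b, under 1 each. The cause was not tested. No paired analysis was possible because the titles carry no shared replicate numbers. Low counts limit Eef2k, at 4.91 to 12.2 normalized counts.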
